A study of Mus musculus with 24 samples.

Results

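Transcript levels of 10 glutathione transferase genes were followed in mouse liver: Gsta1, Gsta2, Gsta3 and Gsta4 of the alpha class, Gstm1, Gstm2, Gstm3, Gstm4 and Gstm6 of the mu class, and Gstp1 of the pi class. They were taken from a fixed list of symbols, matched by gene name in the deposited table, and all 10 were found among its 14995 genes and among the 13121 genes with enough counts to be tested. The data are 24 libraries of mouse liver RNA, taken 20 weeks after surgery, 8 in each of 3 groups. Sham mice had a sham operation. RYGB mice had a Roux-en-Y gastric bypass, in which a small stomach pouch is joined to a lower stretch of the small intestine. WM mice had their calories restricted so that their weight followed that of the RYGB mice. The series title speaks of obese mice, whereas strain, sex, age, diet and any operation on the WM mice are not stated in the labels. Each library carries the number of its label, such as Sham 3, and the labels do not state in words that each came from a separate animal, so that p-values measure the spread between these libraries.

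Glutathione transferases join the tripeptide glutathione to reactive, fat-soluble molecules, which makes them water-soluble and ready for export from the hepatocyte as conjugates. The cytosolic enzymes are pairs of subunits of 1 class, and the alpha and mu classes are abundant in liver. In rodents many of these genes are known to be induced by drugs and dietary compounds through the antioxidant factor NRF2, encoded by Nfe2l2, and the drug-sensing nuclear receptors CAR and PXR, and some differ between male and female liver.

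Levels are counts-per-million values (CPM) with library sizes scaled by TMM, a method that assumes that most genes do not change. The library kit captures the 3′ end of each messenger RNA, about 1 fragment per transcript, so that CPM was not divided by gene length. Library totals were 13659647 to 22766612 counts, with overlapping ranges in the 3 groups. All 10 hepatocyte markers were detected in every group, and their summed CPM was 44216 to 99502 for Sham, 97061 to 179287 for WM and 102363 to 171350 for RYGB. Transcripts of 16 pancreatic acinar genes summed to at least 1332 CPM in Sham 17, RYGB 18 and RYGB 19 and to at most 26.0 CPM elsewhere. The libraries also differed in a trend of counts on transcript GC content, highest in WM 25 (0.0747 log2 units per percentage point) and lowest in Sham 2 (-0.0329). A trend on transcript length, in log2 units per doubling, ran from 0.0341 to 0.177 in Sham, from -0.135 to 0.0455 in WM and from -0.0821 to 0.0111 in RYGB, so that Sham did not overlap RYGB. It moves with both comparisons with Sham, and its part in the members' differences was not tested apart from a joint correction for GC content and length, given with the GC trend.

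Differences between groups were tested with edgeR's quasi-likelihood F-test over all 13121 genes, and a gene is said to have risen or fallen when its Benjamini-Hochberg adjusted p was under 0.05. In RYGB against Sham, 2 of the 10 members rose (Gsta3 and Gsta4) and 3 fell (Gsta1, Gstm3 and Gstm4), where 12.7% of all genes tested rose and 11% fell. In WM against Sham none rose and 4 fell (Gsta1, Gstm2, Gstm3 and Gstm4), where 16.5% of all genes rose and 15% fell. The 3 and 4 falls among 10 members are a larger share than among all genes, and with so few members nothing particular to the family is read from it. No member passed in RYGB against WM, where 1.06% of all genes rose and 0.434% fell. The unadjusted p of the same test was under 0.05 for 4 of the 10 members and for 1456 of the 13121 genes. DESeq2 called 3 members (Gsta2, Gsta3 and Gsta4, all higher in RYGB), and of the 13121 genes it called 218 higher and 124 lower. The median log2 fold change of the members was -0.47 in RYGB against Sham, -0.83 in WM against Sham and 0.33 in RYGB against WM, where the median of all genes tested was -0.01, -0.01 and -0.02. Both comparisons with Sham share its 8 libraries. When libraries were scaled by their totals instead of TMM, the median of all genes moved to -0.36 and -0.33 in the comparisons with Sham, and the share of calls that were rises went from 53.6% to 17.6% and from 52.4% to 22.4%.

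**Figure D1:**
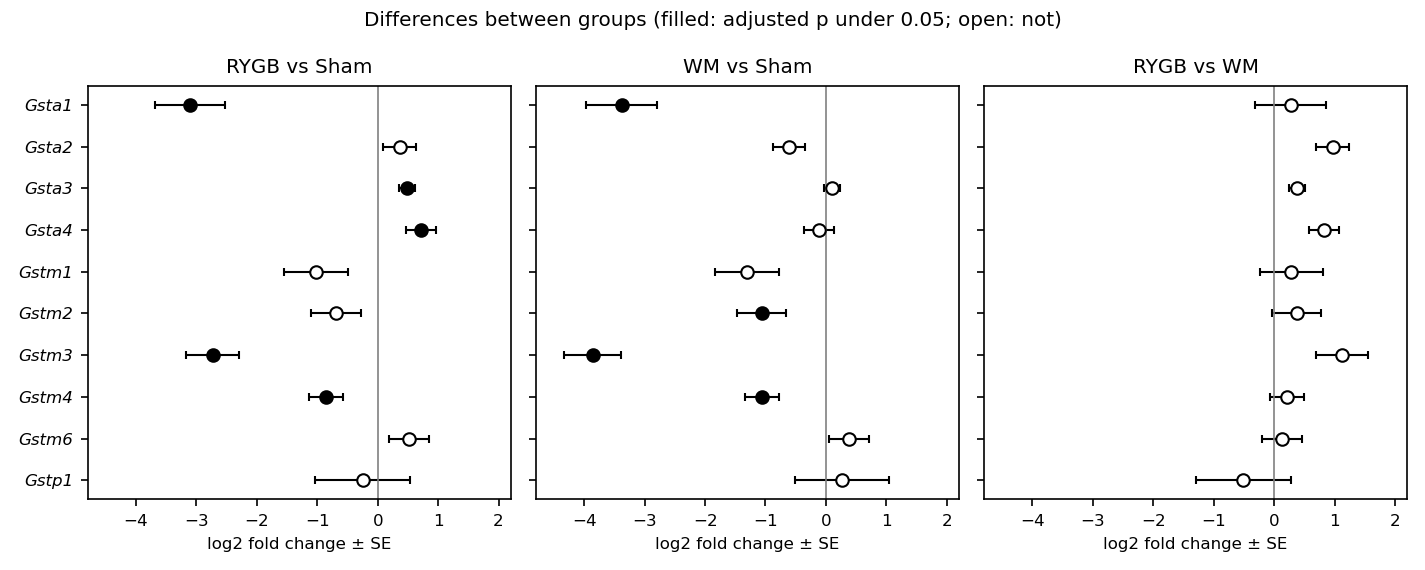
Log2 fold change (x axis) of each member (y axis) in the 3 comparisons of 8 libraries against 8, with bars of 1 standard error from edgeR; filled points have an adjusted p under 0.05. Gsta1 and Gstm3 lie farthest from 0 in both comparisons with Sham, between -2.73 and -3.86, and no point is filled in RYGB vs WM.

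Of the alpha members, Gsta1, Gsta2 and Gsta4 lie together on mouse chromosome 9 and Gsta3 lies apart on chromosome 1. In GENCODE M21 (GRCm38) Gsta1 spans chr9:78230656-78242684 on the plus strand, Gsta4 chr9:78182774-78209349 on the plus strand, Gsta2 chr9:78331018-78355788 on the minus strand and Gsta3 chr1:21240589-21265661 on the plus strand. The same chromosome 9 cluster holds Gsta5, which the deposited table names so and the RefSeq and GENCODE tables used here name Gm10639. The 250 bases before the RefSeq start of these genes (GRCm38.p6) are shown because Gsta1 and Gsta5 fell while their neighbour Gsta2 did not pass in the same libraries. Capitals mark TTCNNNGAA, the core letters known for STAT5 (a palindrome, the same on both strands), or TGACNNNGC, the core of the antioxidant response element bound by NRF2 (both strands searched).
Gsta1, chr9:78230419-78230668, plus strand: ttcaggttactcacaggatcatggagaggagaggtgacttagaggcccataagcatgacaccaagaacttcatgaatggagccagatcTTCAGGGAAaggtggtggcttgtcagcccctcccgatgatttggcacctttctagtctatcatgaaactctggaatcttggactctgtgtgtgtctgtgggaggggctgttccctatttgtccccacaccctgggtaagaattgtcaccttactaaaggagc
Gsta5 (Gm10639), chr9:78289678-78289927, plus strand: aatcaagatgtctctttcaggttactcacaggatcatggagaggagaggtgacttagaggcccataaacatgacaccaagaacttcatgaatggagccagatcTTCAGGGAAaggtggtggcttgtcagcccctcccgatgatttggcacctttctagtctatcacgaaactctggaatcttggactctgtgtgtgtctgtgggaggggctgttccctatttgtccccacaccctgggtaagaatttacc
Gsta2, chr9:78347146-78347395, minus strand: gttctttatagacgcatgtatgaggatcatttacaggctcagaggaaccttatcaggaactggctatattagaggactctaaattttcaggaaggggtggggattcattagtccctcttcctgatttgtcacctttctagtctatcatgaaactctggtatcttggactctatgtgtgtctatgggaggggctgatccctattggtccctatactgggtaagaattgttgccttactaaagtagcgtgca
Gsta3, chr1:21240335-21240584, plus strand: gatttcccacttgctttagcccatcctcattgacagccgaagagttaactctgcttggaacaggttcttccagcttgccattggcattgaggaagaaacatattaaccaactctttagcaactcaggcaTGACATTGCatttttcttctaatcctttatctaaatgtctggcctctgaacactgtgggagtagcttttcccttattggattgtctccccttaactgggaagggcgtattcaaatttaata

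The Gsta1 sequence was 87.5% identical to that of Gsta5 and 70.5% to that of Gsta2, and 50.4% to that of Gsta3. TTCAGGGAA began 162 bases before the start of Gsta1 and 147 before that of Gsta5, and Gsta2 held no TTCNNNGAA in its window. TGACATTGC began 121 bases before the start of Gsta3. Of 32851 RefSeq promoter windows of 250 bases before to 50 after a start, 8.3% held TTCNNNGAA and 12.4% held TGACNNNGC on either strand. Of the members, 9 had an entry, and Gstm6, with 3 starts, had TTCNNNGAA before 1 of them, while the windows of Gstm1, Gstm2, Gstm3, Gstm4 and Gstp1 held neither set of letters. In Gm3776, of the same chromosome 9 cluster, TTCAGGGAA began 149 bases before the start, and its level is not given here. The windows printed were chosen with the results known. The split of reads between Gsta1, Gsta2 and Gsta5 is uncertain, as given below. A match is a description of the letters and was not tested as a site or as a cause of a level.

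Gsta1 and Gsta2 encode the inducible Ya-type subunits of the alpha class. Gsta1 fell in both comparisons with Sham, while Gsta2 passed in none. Gsta1 stood between 1.86 and 23.0 CPM in Sham with a median of 6.20, between 0 and 1.57 in WM with a median of 0.621, and between 0 and 2.18 in RYGB with a median of 0.698. Every WM library lay below every Sham library, which 2.68% of all genes tested did, and the RYGB libraries overlapped only the lowest Sham library, Sham 2. Gsta1 fell by 3.38 ± 0.59 on the log2 scale in WM (edgeR adjusted p = 7.72e-05) and by 3.11 ± 0.58 in RYGB (adjusted p = 0.000254), and its means were 7.87 ± 6.94 CPM in Sham, 0.750 ± 0.543 in WM and 0.900 ± 0.731 in RYGB (SD, n = 8 each). In a bulk sample, fewer cells of a type and less RNA per cell cannot be told apart.

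Gsta2 stood between 18.1 and 47.4 CPM in Sham (median 23.2), between 11.4 and 23.9 in WM (median 17.9) and between 15.1 and 70.9 in RYGB (median 28.1). The groups overlapped, with RYGB 19 and RYGB 29 highest of all 24 libraries. Its log2 fold change was 0.36 ± 0.27 in RYGB against Sham (adjusted p = 0.343), -0.61 ± 0.27 in WM against Sham (adjusted p = 0.0833) and 0.97 ± 0.27 in RYGB against WM (adjusted p = 0.0646), and none passed. The difference between WM and Sham passed, as a fall in WM, under library totals (-0.92, adjusted p = 0.0130), with the 2 compared groups only (-0.60, adjusted p = 0.0474) and after the GC and length correction (-0.69, adjusted p = 0.0490), in a range of 0.00452 to 0.312 over all alternatives. The lowest of these, 0.00452, belongs to the summed counts of Gsta1, Gsta2 and Gsta5 and not to Gsta2 alone. The relative Gsta5 had 436 counts in the 8 Sham libraries, 1 in WM and 33 in RYGB, with 7 WM and 5 RYGB libraries at 0, and it fell in both comparisons with Sham (adjusted p = 1.93e-06 in WM and 0.000620 in RYGB).

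The split between Gsta1, Gsta2 and Gsta5 depends on how reads that match several genes were counted, for which the labels give no rule. In the last 500 bases of the GENCODE transcripts, 90.0% of the 50-base windows of Gsta1 also occur in Gm3776, Gsta2 or Gm10639, and 51.0% of those of Gsta2 occur in another gene. Whole transcripts of Gsta1 and Gsta2 were 96.7% identical. With the counts of Gsta1, Gsta2 and Gsta5 summed, the level was 38.5 ± 16.9 CPM in Sham, 18.9 ± 4.70 in WM and 36.7 ± 20.5 in RYGB. The sum, mostly Gsta2, fell by 1.03 ± 0.27 on the log2 scale in WM against Sham (adjusted p = 0.00452), and the fall of Gsta1 in RYGB was not seen in it (log2 fold change -0.07 ± 0.27, adjusted p = 0.879).

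Gsta3, whose product detoxifies the epoxide of aflatoxin in mice, was the most abundant member and varied least. It stood between 1484 and 2387 CPM in Sham (median 1807), between 1621 and 2211 in WM (median 2021) and between 2273 and 2781 in RYGB (median 2586). All RYGB libraries lay above all WM libraries, as in 0.282% of genes tested, and 7 of 8 lay above all Sham libraries, RYGB 18 being the exception below Sham 6. The gene rose by 0.48 ± 0.13 on the log2 scale in RYGB against Sham (adjusted p = 0.00903), from 1840 ± 306 to 2566 ± 157 CPM. The difference of 0.10 ± 0.13 in WM against Sham (adjusted p = 0.614) did not pass, nor did 0.38 ± 0.13 in RYGB against WM (adjusted p = 0.192, unadjusted 95% interval 0.11 to 0.66). The rise in RYGB was called without each library in turn, and scaling by library totals ended the call (0.13 ± 0.16, adjusted p = 0.536, where the median of all genes was -0.36).

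Gsta4 encodes the alpha enzyme that conjugates 4-hydroxynonenal, an aldehyde of lipid peroxidation. Its level was 31.1 to 77.7 CPM in Sham (median 51.4), 27.1 to 74.7 in WM (median 44.2) and 46.2 to 153 in RYGB (median 83.2). The groups overlapped, and RYGB 29 and RYGB 19 were again the highest. Gsta4 rose by 0.72 ± 0.24 on the log2 scale in RYGB against Sham (adjusted p = 0.0317), and the differences of -0.11 ± 0.24 in WM against Sham (adjusted p = 0.756) and 0.83 ± 0.25 in RYGB against WM (adjusted p = 0.0902) did not pass. The rise was not called without any 1 of Sham 2, Sham 5, Sham 6, Sham 17, RYGB 19 and RYGB 29 (0.55 to 0.70 on the log2 scale), or without the 3 libraries that hold acinar transcripts (0.53, adjusted p = 0.179, in a range of 0.0154 to 0.219 over all alternatives).

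**Figure D2:**
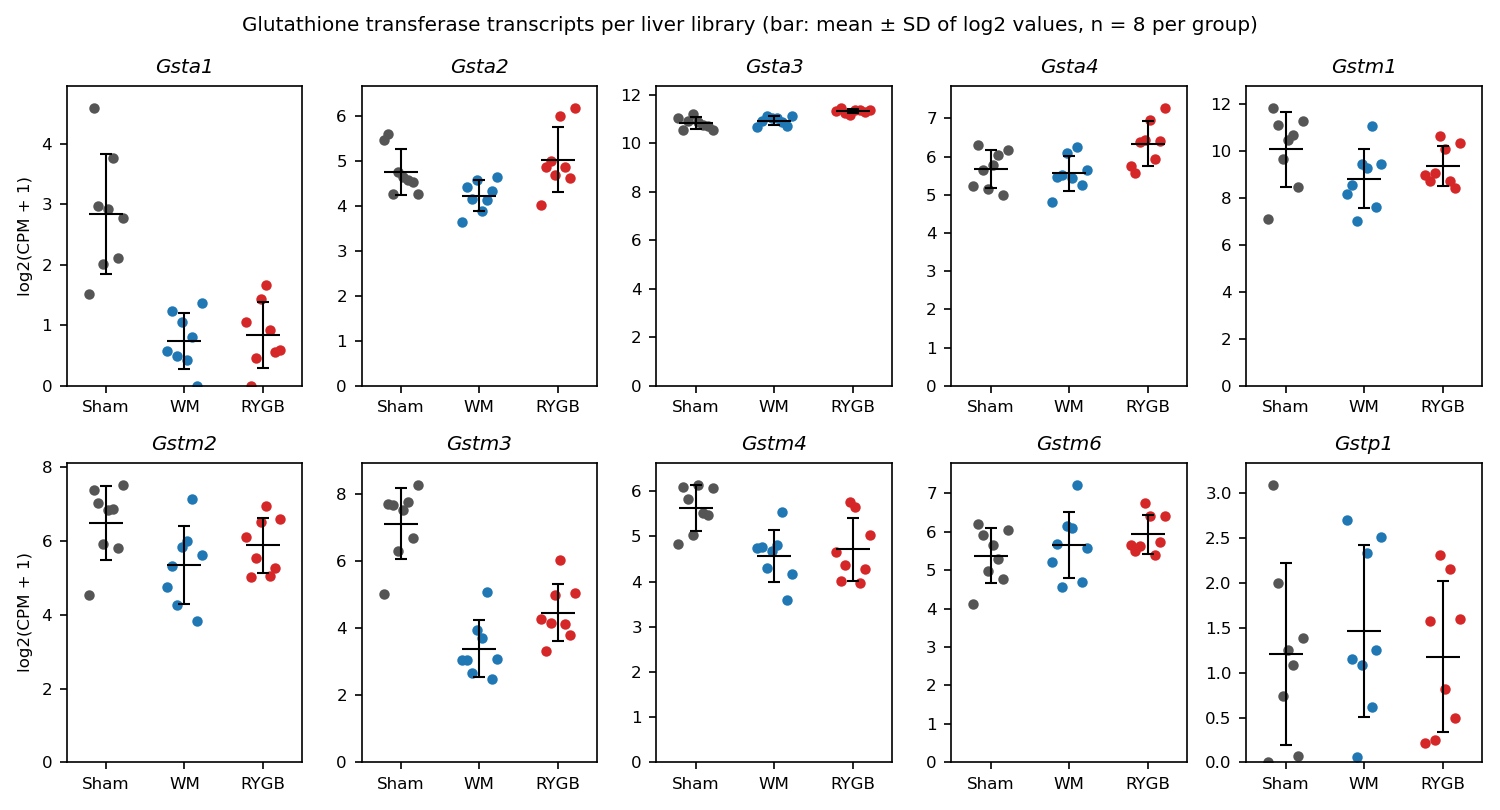
Each panel gives 1 member, with log2(CPM + 1) on the y axis starting at 0 and 8 libraries for each of Sham, WM and RYGB on the x axis; bars are mean ± SD of the plotted values. Gsta1 and Gstm3 are low in nearly all WM and RYGB libraries, Gsta3 is tightly grouped, and Gstm1 spans a wide range within each group.

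The mu members form 1 cluster on the minus strand of chromosome 3. In GRCm38 Gstm6 spans chr3:107938847-107943749, Gstm3 chr3:107963696-107969283, Gstm2 chr3:107981702-107986453, Gstm1 chr3:108012255-108017973 and Gstm4 chr3:108040408-108044894. Their 3′ ends are mostly distinct: at most 3.1% of the 50-base windows of a mu member occur in another gene.

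Gstm3, a mu subunit known to be induced in mouse liver by phenobarbital-type drugs, showed the largest falls of the 10 members apart from Gsta1 in RYGB. It stood between 31.7 and 312 CPM in Sham (median 195), between 4.57 and 33.4 in WM (median 7.46) and between 8.94 and 64.6 in RYGB (median 17.5). Sham 2 was the lowest Sham library, and only WM 25, RYGB 19 and RYGB 29 reached its level. Gstm3 fell by 3.86 ± 0.47 on the log2 scale in WM (adjusted p = 5.51e-07) and by 2.73 ± 0.44 in RYGB (adjusted p = 4.85e-05), from a mean of 167 ± 90.6 CPM in Sham to 11.5 ± 9.43 and 25.1 ± 17.9. Both calls held without each library in turn. The level in RYGB was 1.13 ± 0.43 above that in WM on the log2 scale (adjusted p = 0.260), a difference that passed under 1 alternative, without WM 25 (1.58, adjusted p = 0.0336, in a range of 0.0336 to 0.914 over all alternatives). The highest of these, 0.914, belongs to the summed counts of Gstm1 to Gstm7 and not to Gstm3 alone.

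Gstm4, a less abundant mu subunit, fell in both comparisons with Sham, by 1.06 ± 0.28 on the log2 scale in WM (adjusted p = 0.00540) and by 0.85 ± 0.28 in RYGB (adjusted p = 0.0281). Its level was 27.4 to 69.8 CPM in Sham (median 50.3), 11.0 to 45.7 in WM (median 25.3) and 14.6 to 53.1 in RYGB (median 22.0). The groups overlapped, with WM 25, RYGB 18, RYGB 19 and RYGB 29 (31.6 CPM) within the Sham range. Of these, WM 25, RYGB 18 and RYGB 19 lay well above the other libraries of their groups. The fall in WM was called without each library in turn, whereas that in RYGB was not called without any 1 of Sham 3, Sham 14, Sham 23, RYGB 11, RYGB 15, RYGB 22 and RYGB 28 (-0.79 to -0.75 on the log2 scale, adjusted p from 0.0534 to 0.0589).

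Gstm1, the main mu subunit of mouse liver, followed Gsta3 in abundance and spanned a wide range of levels. It stood between 136 and 3607 CPM in Sham (median 1532), a ratio of 26.5 between Sham 3 and Sham 2, between 128 and 2115 in WM (median 495) and between 347 and 1597 in RYGB (median 515). The groups overlapped across most of their range. Its log2 fold change was -1.31 ± 0.53 in WM against Sham (adjusted p = 0.0583) and -1.02 ± 0.52 in RYGB against Sham (adjusted p = 0.161), and neither passed. Without WM 25, the highest WM library, Gstm1 fell by 1.89 in WM (adjusted p = 0.00512, in a range of 0.00124 to 0.149 over all alternatives), and it also passed there without Sham 2 or without Sham 17. Among the settings where it passed there were library totals (-1.65, adjusted p = 0.00976), limma-voom (-1.85, adjusted p = 0.00124) and leaving out the acinar libraries (-1.46, adjusted p = 0.0358). Of 12 settings other than leaving out 1 library, 6 kept the main result of no call. In RYGB against Sham it passed under library totals (-1.32, adjusted p = 0.0369), under limma-voom (-1.10, adjusted p = 0.0375) and without the acinar libraries and WM 25 (-1.58, adjusted p = 0.0241), in a range of 0.0241 to 0.363. The summed counts of Gstm1 to Gstm7, mostly Gstm1, fell by 1.24 ± 0.47 in WM against Sham (adjusted p = 0.0457), and the difference of -0.96 ± 0.47 in RYGB against Sham did not pass (adjusted p = 0.142).

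Gstm2, another hepatic mu subunit, stood between 22.0 and 183 CPM in Sham (median 115), between 13.4 and 140 in WM (median 43.5) and between 31.6 and 122 in RYGB (median 56.7). The groups overlapped, and WM 25 stood apart from the other WM libraries. Gstm2 fell by 1.07 ± 0.41 on the log2 scale in WM against Sham (adjusted p = 0.0485), a call lost in 12 of 16 fits that left out 1 library and under DESeq2 (adjusted p = 0.0589), while -0.69 ± 0.41 in RYGB against Sham (adjusted p = 0.227) did not pass. The latter passed under library totals (-1.01, adjusted p = 0.0413), under limma-voom (-0.83, adjusted p = 0.0422) and without the acinar libraries and WM 25 (-1.12, adjusted p = 0.0441), in a range of 0.0413 to 0.385 over all alternatives.

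Gstm6, a mu subunit whose own substrates are less well known, had positive estimates against Sham, where those of the other mu members were negative. Gstm7, which lies beside it on chromosome 3, also had positive estimates (0.49 ± 0.34 in RYGB and 0.43 ± 0.34 in WM). Neither gene passed against Sham. It stood between 16.4 and 71.8 CPM in Sham (median 43.5), between 22.7 and 148 in WM (median 48.6) and between 41.2 and 106 in RYGB (median 50.8). The groups overlapped, and the differences of 0.52 ± 0.33 in RYGB (adjusted p = 0.262) and 0.38 ± 0.33 in WM (adjusted p = 0.389) against Sham did not pass.

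Within the groups most mu members varied together with Gstm1, and in Sham so did 3 members of other classes. Over 8 libraries, log2(CPM + 1) of Gstm1 and Gstm2 had Pearson's r of 0.98 in Sham, 0.96 in WM and 0.88 in RYGB (two-sided exact permutation test, adjusted p = 0.00234, 0.00469 and 0.0198 over 27 relations of Gstm1 with the other members in 3 groups), with Spearman's rho of 0.98, 0.88 and 0.81 (adjusted p = 0.00536, 0.0289 and 0.0490). Without the 2 libraries farthest from the median of Gstm1, r was 0.93, 0.95 and 0.91. For Gstm6, r was 0.97, 0.96 and 0.95 (exact permutation, adjusted p = 0.00234, 0.00446 and 0.0137), with rho of 0.98, 0.86 and 0.69 (adjusted p = 0.00536, 0.0289 and 0.125), and r without the same 2 libraries was 0.92, 0.89 and 0.87. By r, Gstm6 thus followed Gstm1 from library to library. Its estimates against Sham were positive where those of Gstm1 were negative. Neither gene passed there in the main test, and the difference between their estimates was not tested. For Gstm4, r was 0.82 in Sham, 0.71 in WM and 0.91 in RYGB (exact permutation, adjusted p = 0.0243, 0.0876 and 0.0137), with rho of 0.74, 0.45 and 0.86 (adjusted p = 0.0952, 0.344 and 0.0289), so that the pair did not pass in WM, where r without the same 2 libraries was 0.47. Of the 27 values of r, 14 passed: those with a mu member in each group other than Gstm4 in WM, and in Sham also those with Gsta1 (0.83), Gsta4 (0.83) and Gstp1 (0.87; exact permutation, adjusted p = 0.0230, 0.0200 and 0.0137). Shared variation with Gstm1 was therefore not limited to the mu class. The share of all genes tested that varied with Gstm1 was not computed, and Gstm1 also moved with the GC trend of the libraries. Nothing particular to the family is read from the count. Gsta3 and Gstm1 were not shown to be related (r = -0.53 in Sham, 0.14 in WM and -0.42 in RYGB, exact permutation, adjusted p = 0.239, 0.752 and 0.360, with rho of -0.62, 0.05 and -0.40, adjusted p = 0.183, 0.935 and 0.401). That relation changed its sign or size without the 2 farthest libraries (r = -0.89, 0.94 and 0.10).

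**Figure D3:**
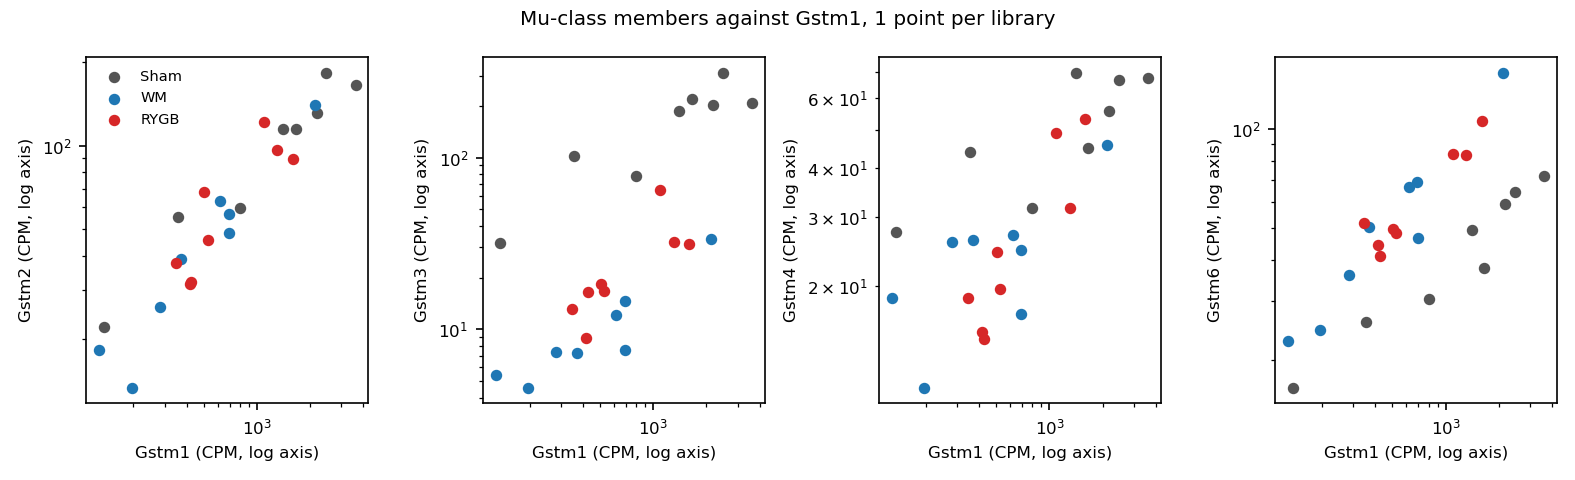
CPM of Gstm2, Gstm3, Gstm4 and Gstm6 (y axes, log scale) against CPM of Gstm1 (x axes, log scale), 1 point per library, coloured by group. Within a group the points mostly rise together, least so for Gstm4 in WM; for Gstm3 the Sham points lie above the WM and RYGB points at the same Gstm1 level, and for Gstm6 they lie below them.

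The levels of many members also moved with the GC trend of their library, with 17 of 30 values of r passing: in Sham all members but Gsta2 and Gsta3, in WM Gstm1, Gstm2, Gstm3 and Gstm6, and in RYGB the 5 mu members. The trend was fitted to the levels of all genes tested, and the share of them that moved with it was not computed. Nothing particular to the members is read from the count. By Spearman's rho no member passed in RYGB (exact permutation, adjusted p of 0.0919 or more). Nor did rho pass for Gsta1 and Gstm4 in Sham or Gstm6 in WM (exact permutation, adjusted p = 0.0653, 0.106 and 0.0919). Within Sham, WM and RYGB, Pearson's r of log2(CPM + 1) of Gstm1 with the slope on GC content was 0.86, 0.91 and 0.96 (two-sided exact permutation test, adjusted p = 0.0194 in each over 30 relations of 10 members in 3 groups), and rho was 1.00, 0.86 and 0.76 (adjusted p = 0.00149, 0.0357 and 0.0919). Without the 2 libraries with the farthest slopes r was 0.84, 0.65 and 0.92. The Gstm1 transcripts have a GC content of 54.0%, against a median of 50.1% over the genes tested, and Gsta3 has 45.5%. In Sham, r also passed for members whose GC content is below that median, Gsta1 (46.9% GC, r = 0.81) and Gsta4 (49.2% GC, r = 0.88; exact permutation, adjusted p = 0.0299 and 0.0194). When each library was corrected for its trends on GC content and on the length of transcripts, the ratio of the highest to the lowest Sham library was still 20.1 for Gstm1. In that fit Gstm1 fell in WM against Sham (-1.52 ± 0.47, adjusted p = 0.0140) and not in RYGB (-1.13 ± 0.47, adjusted p = 0.0741), Gsta4 in RYGB no longer passed (0.62 ± 0.24, adjusted p = 0.0528), and Gsta2 passed in WM against Sham (-0.69, adjusted p = 0.0490) and in RYGB against WM (0.98, adjusted p = 0.0477, in a range of 0.0247 to 0.207 over all alternatives).

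**Figure D4:**
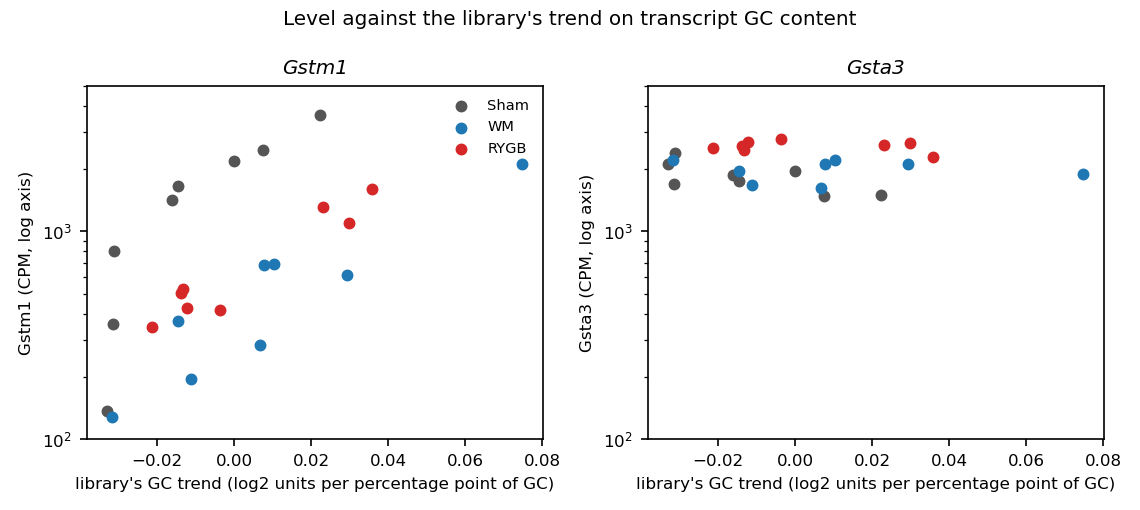
CPM of Gstm1 and of Gsta3 (y axes, log scale) against the slope of log2 CPM on transcript GC content in each library (x axes, log2 units per percentage point), coloured by group. Gstm1 rises with the slope within each group, WM 25 lies farthest to the right at 0.0747, and Gsta3 stays between 1484 and 2781 CPM throughout.

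Gstp1 encodes the pi-class subunit, known for binding the stress kinase JNK besides its conjugating activity. In GRCm38 it spans chr19:4035407-4037985 on the minus strand. It stood between 0 and 7.53 CPM in Sham (median 1.25), between 0.0403 and 5.51 in WM (median 1.31) and between 0.162 and 3.95 in RYGB (median 1.38). The groups overlapped fully, and the differences of -0.25 ± 0.78 in RYGB (adjusted p = 0.853) and 0.27 ± 0.78 in WM (adjusted p = 0.823) against Sham did not pass. Of its 50-base windows at the 3′ end, 75.2% also occur in Gstp2 or a pi-class pseudogene, and Gstp2 was not analysed here, so that the level of Gstp1 against other genes is uncertain. Its intervals were wide: the unadjusted 95% interval in RYGB against Sham ran from -1.85 to 1.36 on the log2 scale.

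Summed CPM show how the classes shared the transcripts of the 10 members. The alpha members summed to 1580 to 2450 CPM in Sham (median 1899), 1660 to 2275 in WM (median 2088) and 2385 to 2855 in RYGB (median 2700). The mu members summed to 234 to 4119 CPM in Sham (median 1950), 193 to 2482 in WM (median 641) and 468 to 1877 in RYGB (median 660). Gsta3 alone made up 52.8% ± 21.4 of the members' CPM in Sham, 73.1% ± 14.4 in WM and 71.7% ± 11.5 in RYGB (SD, n = 8), and Gstm1 made up 35.7% ± 19.5, 19.7% ± 12.9 and 20.1% ± 9.66. The shares overlapped between groups: Gstm1 ran from 5.64% in Sham 2 to 62.6% in 1 Sham library. These sums are a description with no test.

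In order of mean level, Gsta3 and Gstm1 led in every group. Behind them in Sham came Gstm3 (167 CPM), Gstm2 (106), Gsta4 (52.4), Gstm4 (51.0), Gstm6 (44.5), Gsta2 (27.6), Gsta1 (7.87) and Gstp1 (1.92). The ranges of all neighbours in this order overlapped in Sham. In WM and RYGB Gstm3, at 11.5 and 25.1 CPM, stood behind Gstm2, Gsta4, Gstm4, Gstm6 and Gsta2.

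Of the other 18 glutathione transferase genes listed, 14 were tested. In RYGB against Sham 3 rose and 3 fell, in WM against Sham 2 rose and 2 fell, and none passed in RYGB against WM. These are 21.4% each way in RYGB, where 12.7% of all genes rose and 11% fell. In WM they are 14.3% each way, where 16.5% of all genes rose and 15% fell. Gstt2, a theta-class enzyme, rose in both comparisons. Its mean of 38.8 ± 14.8 CPM in Sham became 93.4 ± 31.8 in RYGB (log2 fold change 1.27 ± 0.24, adjusted p = 0.000276) and 88.7 ± 24.9 under WM (1.19 ± 0.24, adjusted p = 0.000353). Its theta-class relative Gstt3 rose in RYGB (1.15 ± 0.36, adjusted p = 0.0204), as did the omega-class Gsto1, a reductase of oxidised thiols (1.05 ± 0.27, adjusted p = 0.00583). Gstz1, the zeta-class isomerase of tyrosine breakdown, rose in WM (0.47 ± 0.15, adjusted p = 0.0179). The membrane-bound Mgst3 fell in RYGB (-1.37 ± 0.35, adjusted p = 0.00467) and in WM (-1.08 ± 0.34, adjusted p = 0.0169), and Hpgds, the sigma-class prostaglandin D synthase, fell in RYGB (-1.29 ± 0.46, adjusted p = 0.0389). Gstm5, Gstm7, Gstp3, Gstt1, Gstk1, Gstcd and the abundant microsomal Mgst1 did not pass in any comparison.

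Genes that make and supply glutathione gave 4 rises and 1 fall of 20 tested in RYGB against Sham and 2 rises and 3 falls in WM against Sham. For this list and the next, the shares over all genes were 12.7% up and 11% down in RYGB. In WM they were 16.5% and 15%, and 1.06% of all genes rose in RYGB against WM. Gclc, the catalytic subunit of the rate-limiting enzyme of glutathione synthesis, fell. Its mean was 941 ± 304 CPM in Sham, 330 ± 68.3 after RYGB (log2 fold change -1.51 ± 0.20, adjusted p = 3.59e-06) and 212 ± 39.9 in WM (-2.15 ± 0.20, adjusted p = 1.70e-08). Cth, which makes cysteine from cystathionine, rose in RYGB against Sham (1.28 ± 0.22, adjusted p = 0.000115) and was the 1 gene of the list higher in RYGB than in WM (0.93 ± 0.22, adjusted p = 0.0235). Of 22 genes of glutathione use and conjugate export, 7 rose and 2 fell in RYGB and 6 rose and 3 fell in WM. Nat8, which acetylates cysteine conjugates to mercapturates, rose in both (1.49 ± 0.21, adjusted p = 9.36e-06, and 1.85 ± 0.21, adjusted p = 3.24e-07), and Abcc3, an exporter of conjugates into blood, fell most clearly in WM (-1.11 ± 0.20, adjusted p = 9.80e-05). Scaled by library totals, falls outnumbered rises in both lists, as they already did for synthesis in WM: synthesis gave 2 rises and 3 falls in RYGB and 1 rise and 5 falls in WM, and use and export gave 4 rises and 5 falls in RYGB and 4 rises and 6 falls in WM.

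Among 30 genes of the NRF2 pathway and its known targets outside the members, 1 rose and 8 fell in RYGB against Sham and 1 rose and 12 fell in WM against Sham, with medians of -0.20 and -0.28. Over all genes 12.7% rose and 11% fell in RYGB, and 16.5% rose and 15% fell in WM, with medians of -0.01 in each. In RYGB against WM 1.06% of all genes rose. Cbr3, a carbonyl reductase, fell in both (-3.22 ± 0.36, adjusted p = 2.78e-07, and -2.46 ± 0.34, adjusted p = 4.02e-06), and so did Me1, the cytosolic malic enzyme (-1.43 ± 0.21, adjusted p = 1.30e-05, and -1.51 ± 0.21, adjusted p = 3.48e-06). The receptors CAR and PXR and their known targets gave 8 rises and 3 falls of 22 in RYGB and 7 rises and 6 falls in WM against Sham, and 4 rises in RYGB against WM. Cyp3a11, the classic PXR target, fell in WM against Sham (-3.01 ± 0.26, adjusted p = 2.63e-09) and, by less, in RYGB against Sham (-1.30 ± 0.24, adjusted p = 0.000262), and was higher in RYGB than in WM (1.71 ± 0.25, adjusted p = 0.000131). Cyp2b10, of the same list, fell in RYGB (-5.95 ± 0.77, adjusted p = 2.47e-06) and in WM (-6.73 ± 0.82, adjusted p = 5.88e-07) against Sham. Its mean was low, at 4.89 CPM in Sham, 0.0713 in RYGB and 0.0373 in WM. By contrast Cyp2c54, on the same list, rose in RYGB (4.04 ± 0.42, adjusted p = 9.10e-08) and in WM (3.31 ± 0.40, adjusted p = 6.15e-07) against Sham. Of 19 genes known to be higher in male liver 14 rose in RYGB and 15 in WM against Sham and none fell. Of 11 known to be higher in female liver 7 and 8 fell and 1 rose in each. Scaled by library totals, NRF2 genes gave 14 and 16 falls, the CAR and PXR list turned to 4 rises and 8 falls in WM, and male-liver genes gave 10 and 14 rises with no fall.

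Markers of other liver cells moved in the same libraries. Their counts stand beside 12.7% of all genes up and 11% down in RYGB against Sham, and 16.5% and 15% in WM. Of 12 Kupffer cell markers 10 rose in RYGB and 8 in WM against Sham, and their summed CPM was 101 to 428 for Sham, 309 to 880 for WM and 285 to 1004 for RYGB, with none at 0 in a group. Of 12 stellate cell markers 5 fell in RYGB and 6 in WM (summed CPM 443 to 851 for Sham, 308 to 443 for WM and 329 to 478 for RYGB). Of 12 sinusoidal endothelial markers 4 rose in RYGB and 9 in WM, of 6 lymphocyte markers 3 rose in each, and of 9 cholangiocyte markers 1 rose and 1 fell in RYGB and 1 rose and 3 fell in WM. Hepatocyte markers gave 7 rises and 1 fall of 10 in each comparison with Sham. Of 18 pericentral hepatocyte markers 8 rose in each comparison, and 1 fell in WM. Of 16 periportal markers 8 rose and 1 fell in RYGB and 6 rose in WM. Scaled by library totals, Kupffer cell markers gave 6 and 5 rises, and periportal markers gave 3 rises and 3 falls in WM. The part of these changes in the levels of the transferases was not tested.

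Genes whose levels were most like those of a member were sought by the mean over the 3 groups of the within-group Spearman correlation, over 8 libraries a group and 8143 genes, and are given as a description. Gstm2 was most like Reep6 and Tm6sf2 (0.95 each) and Gstm3 (0.94). Gstm3 was most like Dusp23, Gstm2 and Atxn7l3 (0.94 each), and Gstm4 was most like Eif5a (0.92). For Gsta4 the nearest gene was Imp4 (0.90), for Gsta1 Mroh1 (0.82) and for Gsta3 Ostf1 (0.81). The search covered the 6 members called in a comparison with Sham.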

How the data were processed

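RNA of 24 liver samples was read from the 3′ end (50 bp, forward), per the labels' protocols. The authors deposited whole-number counts per Ensembl gene and a normalized signal, each count divided by 1 size factor per library; DESeq2 1.34 and R 4.1.2 are the tools in the submitters' processing notes. The labels name no aligner, counter or build, and do not say how a read that matches more than 1 gene was counted. Deposited gene names covered 13343 genes and GENCODE M21 named 1616 more; deposited coordinates were not used.

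Counts were fitted in R 4.3.3 with edgeR 4.0.16 (filterByExpr, TMM, 1 quasi-likelihood model over 24 libraries, no covariate), two-sided, with Benjamini-Hochberg adjustment over 13121 genes. Fold changes are given ± their standard error. The common biological coefficient of variation was 0.398. Libraries of a group differed by far more than sampling noise (chi-square of at least 28.1 per degree of freedom). The procedure was tested on simulated data. Those counts were drawn independently for each gene and library and held no GC or length trend, so the test does not cover these features. Low counts limit precision for Gsta1 (94 in all WM libraries) and Gstp1 (195 to 265 in a group). Alternatives were DESeq2 1.42.0, RLE scaling, library totals, no low-count filter, 1 CPM in 8 libraries, 2 groups only, limma-voom and limma-trend (limma 3.58.1, deposited signal plus a pseudocount of 1), summed paralogue counts, leaving out each library and leaving out the 3 acinar libraries. A correction for GC content and length (mgcv 1.9.3) and leaving out WM 25 as well were added after seeing the data.

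The members, lists and rules were chosen with earlier results of these data known. The text names all members, every other glutathione transferase, up to 3 called genes with the smallest p from each list and comparison, and the genes most like a called member with a mean of at least 5 CPM. Promoter sequences are from RefSeq.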

Additional observations from a re-analysis of the deposited data

Results flagged for a closer look

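In 30 groups of 8 libraries (10 members in 3 groups), 7 had a highest library whose gap to the next was, as a share of the group's range, above Dixon's 95% critical value for 8 samples. For independent groups of normally distributed values, chance would mark about 1 in 20. The values here were CPM and not logarithms, and the mu members varied together, so the 7 groups cannot be set against that rate. In WM this library was WM 25 for all 5 mu members: Gstm1 at 2115 CPM (next 694), Gstm2 at 140 (next 63.3), Gstm3 at 33.4 (next 14.6), Gstm4 at 45.7 (next 26.9) and Gstm6 at 148 (next 69.1). WM 25 also has the steepest trend on GC content (0.0747), and its part in these levels was not tested. In RYGB, Gstm3 reached 64.6 CPM in RYGB 19 (next 32.0), 1 of the 3 libraries with acinar transcripts. In Sham, Gstp1 reached 7.53 CPM in Sham 3 (next 3.00), which also holds the highest Sham levels of Gstm1 and Gsta1.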

How the results depend on the processing

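No paired analysis was possible because library numbers are not shared between groups. Rises among the members in RYGB against Sham numbered 2, and 0 under library totals, 1 without the 3 acinar libraries, 1 without these and WM 25, 1 under the GC and length correction, and 1 to 2 without each library. Falls there numbered 3, and 5 under library totals, under limma-voom and without the acinar libraries and WM 25, and 2 to 3 without each library. Falls in WM against Sham (4) ranged from 3 to 5 without each library and from 3 to 6 under the other settings. Rises in RYGB against WM (0) were 3 under DESeq2, 1 under limma-voom and 1 under the correction, and 0 to 2 without each library (2 without WM 25). With paralogues summed, the class sum has another sign than Gsta2 or Gstm6 alone, being the value of the sum and not of that gene: -0.071 for Gsta1, Gsta2 and Gsta5, and for Gstm1 to Gstm7 -0.96 in RYGB and -1.24 in WM against Sham (the last with an adjusted p of 0.0457). Signs turned for values that did not pass in the main test: Gstp1 0.24 in RYGB against Sham under limma-trend; Gsta3 -0.22 in WM against Sham under library totals; Gstm6 -0.060 in WM against Sham without the acinar libraries and WM 25. In RYGB against WM without the acinar libraries, Gsta1 was -0.39, Gstm1 -0.12, Gstm4 -0.24 and Gstm6 -0.13, and with WM 25 also left out, Gsta1 was -0.39 and Gstm4 -0.050. Without 1 library each, Gstp1 ranged from -0.58 to 0.54 in RYGB against Sham (positive without Sham 3) and from -0.050 (without WM 1) to 1.04 in WM against Sham, Gsta4 from -0.23 to 0.00081 in WM against Sham (positive without Sham 3), and in RYGB against WM Gsta1 from -0.040 (without RYGB 19) to 0.51 and Gstm6 from -0.011 (without RYGB 18) to 0.49. The cause was not tested. Of 480 values without 1 library 444 kept their direction and side of the threshold, and of 354 under other settings 310 did.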
